A study of Mus musculus with 6 samples.

Results

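The genes described here are 34 genes of lipid synthesis among the 21760 gene symbols of a count table from mouse tumour macrophages. They were taken by symbol from a list of pathway genes, drawn up with earlier results of these data known, and fall into a sterol branch of 24 genes and a fatty acid branch of 10 genes. All 34 were found, and all 34 passed the filter on low counts. Each library was made from the macrophages of 1 mouse, isolated by cell sorting from an MC38 tumour, a colon carcinoma line, that had grown under the skin of a C57BL6 mouse for 16 days. The tumours were wild type (WT) or carried a knockout (KO) of Xkr8, which encodes a phospholipid scramblase of the plasma membrane. WT tumours, KO clone 1 tumours and KO clone 2 tumours were each sampled in 2 mice. The labels give the genotype for the tumour; no group was treated further. Each KO group rests on 1 clone of tumour cells. The age and sex of the mice, the sort markers and the making of the clones are unstated in the labels. The mice were separate. In the fit with 3 groups, p-values measure the spread between mice, with 2 mice per group. In KO against WT, the 4 KO mice were pooled over the clones. The spread there also holds the difference between clones, and mice that share a clone count as separate.

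Cells make cholesterol and fatty acids from acetyl-CoA. SREBP2, the protein of Srebf2, is a transcription factor that mainly drives the genes of cholesterol synthesis, and SREBP1, the protein of Srebf1, mainly drives those of fatty acid synthesis. When membrane sterol is low, the escort protein SCAP carries both to the Golgi, where they are cut into active factors. When sterol is plentiful, INSIG proteins hold SCAP and its cargo in the endoplasmic reticulum. Macrophages are known to tune this system as they take up dead cells and lipoproteins, and oxysterols made from surplus cholesterol activate the LXR receptors, which drive Srebf1 and cholesterol export.

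Library totals were 37090034 to 40022755 counts in 5 libraries and 20038047 in WT mouse 2. The ribosomal RNA row Rn45s took 24.6% of counts in WT mouse 2 and 1.46% to 7.12% in the others, so WT mouse 2 stood apart, and results that rest on it are given with and without it. The 34 genes together held 0.384% of all counts in WT mouse 1, 0.218% in WT mouse 2 and 0.239% to 0.307% in the KO libraries. The lowest count of any member in any library was 14, for Tm7sf2 in WT mouse 2. Xkr8 itself, knocked out in the tumour cells and not in the host, had a log2 fold change of -0.24 ± 0.28 (SE) in macrophages of KO against WT tumours, with an edgeR adjusted p of 0.637, which checks no label here. A list of 10 macrophage markers summed to 8550 and 11900 CPM (counts scaled to the library's effective total) in WT and 8860 to 10200 in KO, with none at 0. Fibroblast markers, mostly Col3a1, summed to 4160 and 12000 CPM in WT, against 2460 to 3940 in KO. Of these 8 markers only Col3a1 had every KO library below both WT libraries. Dcn went the other way, at 255 and 127 CPM in WT and 286 to 470 in KO, and the rest overlapped. T and NK cell markers summed to 13.6 and 24.9 CPM in WT, against 61.7 to 131 in KO, dendritic cell markers to 14.5 to 16.7 and 28.3 to 48.1, neutrophil markers, nearly all Csf3r, to 26.0 to 26.7 and 46.1 to 64.0, and endothelial markers, mostly Pecam1, to 23.3 to 31.4 and 48.0 to 61.7. Of the 6 endothelial markers 2 had every KO library above both WT libraries, and Vwf, Kdr, Cdh5 and Tek overlapped. Epithelial and tumour cell markers, mostly Cdh1, summed to 15.7 and 44.1 CPM in WT, against 11.3 to 13.2 in KO, with Epcam at most 0.688. In the adipocyte list, whose cells make much fatty acid, Lipe gave most of a sum of 24.2 to 32.5 CPM, and Plin1, Cidec, Lep, Retn and Cfd were at or near 0. The part of these other cells in the lipid genes was not tested, and in bulk RNA fewer cells of a type cannot be told apart from less RNA per cell.

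Levels were compared between genes as mean CPM per kilobase of annotated exon over the 6 libraries. The fatty acid branch held the highest level, 113 CPM per kilobase for Scd2, which makes monounsaturated fatty acids. Next on this scale came Acly, which splits citrate to acetyl-CoA, at 66.9, and Fads1, a desaturase of polyunsaturated fatty acids, at 61.3. Fdps, which makes farnesyl diphosphate, led the sterol branch at 55.9 CPM per kilobase, ahead of Insig1 at 27.5 and Cyp51, the lanosterol demethylase, at 22.6. The lowest levels were those of Tm7sf2, a sterol reductase, at 1.73, and of Hsd17b7 and Lpin1, both at 2.40. Srebf1 stood at 24.7 CPM per kilobase and Srebf2 at 16.2, so both factors lay well within the range of their targets.

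In KO against WT macrophages, no member of either branch passed an adjusted p of 0.05 in edgeR's quasi-likelihood test, where 0.135% of all 15560 genes tested did. At an unadjusted p under 0.05 there were 6 members of 34, 4 of the sterol and 2 of the fatty acid branch, against 13.6% of all genes. DESeq2, run on the same counts, called 2 members, Srebf2 and Fasn, where it called 3.21% of all genes. Fitted log2 fold changes were negative for 16 of 24 sterol genes, with a median of -0.33, and for 6 of 10 fatty acid genes, with a median of -0.10. Over all genes tested 49.8% were negative and the median was 0.0033. All 4 KO libraries lay below both WT libraries for 7 of the 34 members (Acat2, Pmvk, Srebf2, Stard4, Srebf1, Fasn and Fads2), where 10.7% of all genes did so, and above both for Ggps1 alone, where 12.9% did. With RLE size factors 10 members lay below, the same 7 with Hmgcs1, Mvd and Scd2, where 10.7% of all genes did, and Ggps1 alone lay above, where 12.8% did. With library totals alone, without a scaling factor for composition, a comparison added after seeing the data, 4 lay below (Srebf2, Stard4, Fasn and Dhcr7), where 8.27% of all genes did, and none above, where 8.73% did. Srebf2, Stard4 and Fasn were below under all 3 scalings, while Acat2, Pmvk, Srebf1, Fads2 and Ggps1 lost their separation under library totals.

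**Figure D1:**
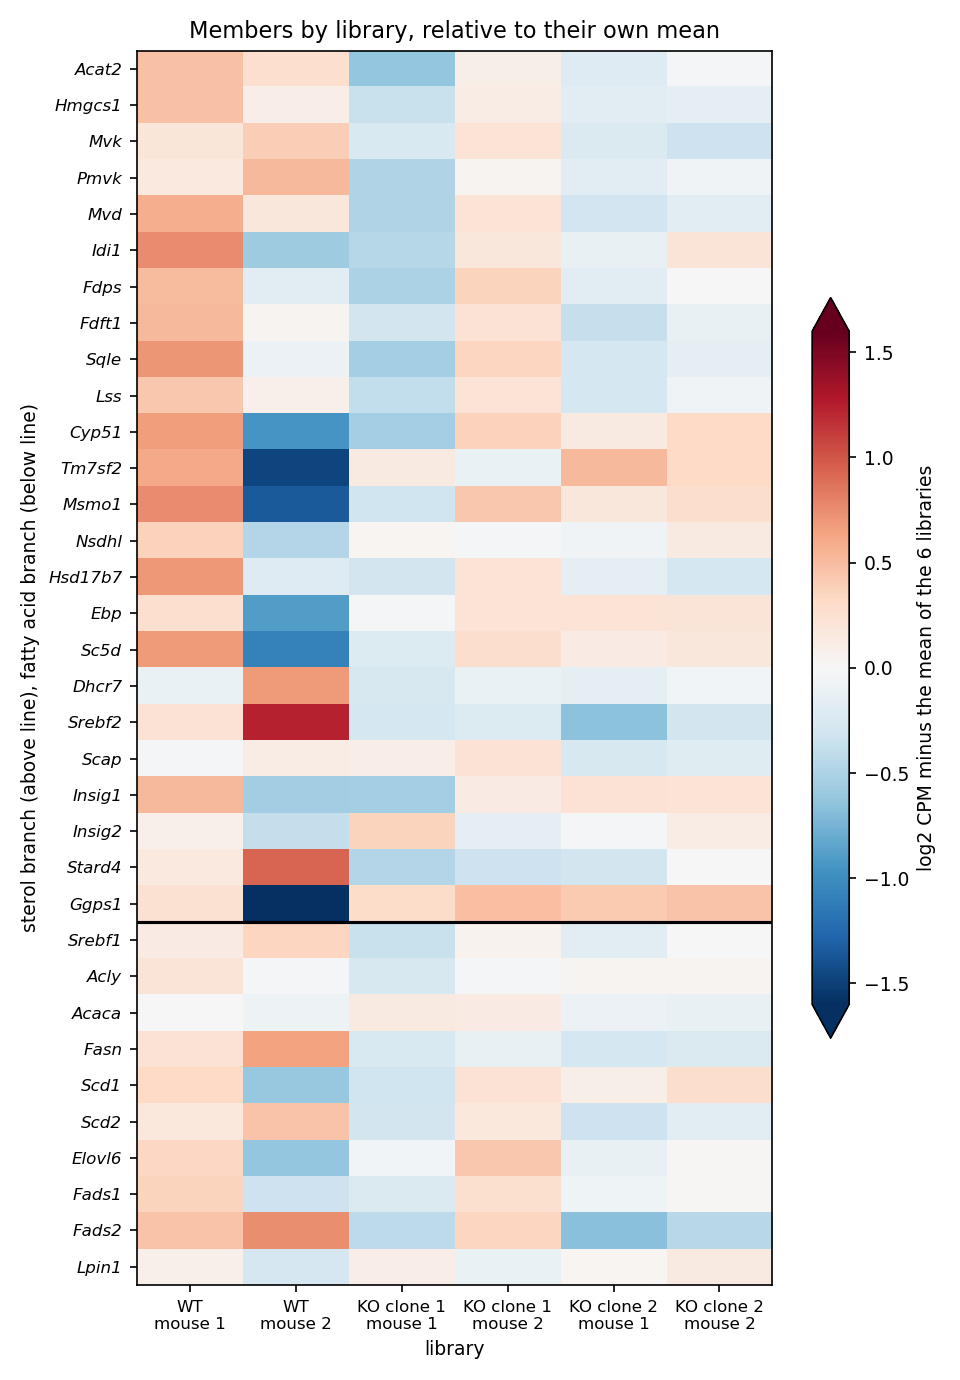
Level of each of the 34 genes (rows) in each of the 6 libraries (columns), as log2 CPM minus the gene's mean over the libraries. WT mouse 1 is the highest library for 16 of 24 sterol genes, against 12.6% of all genes tested. Clone 1 mouse 1 and WT mouse 2 are each the lowest for 10 of the 24, against 12.6% and 39.0% of all genes tested.

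**Figure D2:**
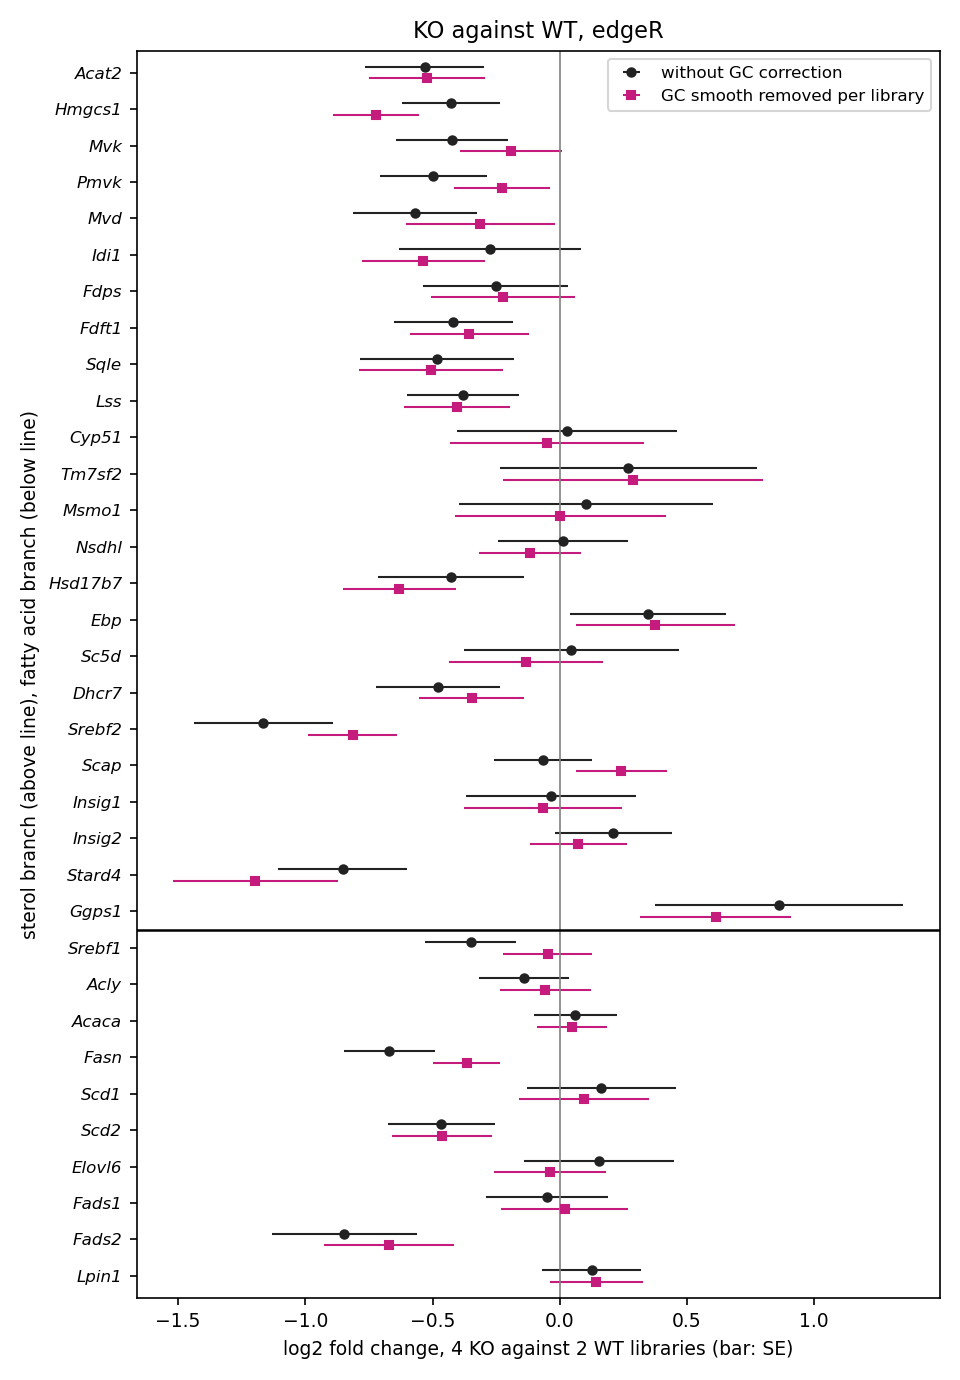
Log2 fold change of each gene in 4 KO against 2 WT libraries, with bars of 1 SE, from the edgeR fit as counted and after removal of each library's trend with GC content. Srebf2, Stard4 and Fasn stay on the negative side in both, while Srebf1 moves from -0.35 to -0.05.

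Among the genes that control the sterol branch, Srebf2 had the smallest p of all 34 members. Srebf2 (chr15, 82147181 to 82205379 on GRCm38) stood at 86.9 and 174 CPM in WT, at 60.8 and 63.7 in clone 1 and at 46.9 and 60.6 in clone 2. Both WT libraries were above every KO library, and the WT libraries differed from each other more than the KO libraries did. Its mean was 130 ± 61.3 CPM (SD, n = 2) in WT and 58.0 ± 7.52 (SD, n = 4) in KO, a log2 fold change of -1.17 ± 0.27 (SE) with an edgeR adjusted p of 0.181 and a DESeq2 adjusted p of 0.0135. Without WT mouse 2, or without WT mouse 1, that fold change ran from -0.61 to -1.57, so its direction held and its size moved by more than 1.5 times. Stard4, a carrier that moves cholesterol between membranes, stood at 18.6 and 31.9 CPM in WT, at 12.1 and 13.2 in clone 1 and at 13.6 and 16.7 in clone 2. Its groups did not overlap either. The fitted difference was -0.85 ± 0.25 (SE, log2) with edgeR's adjusted p at 0.283, and -0.44 ± 0.21 without WT mouse 2.

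The other control genes of the sterol branch did not separate the genotypes. Scap, the sterol-sensing escort, stood at 63.5 and 69.7 CPM in WT and at 53.8 to 75.6 in KO. Insig1, itself a target of SREBP2, stood at 102 and 48.8 CPM in WT, at 48.9 and 78.3 in clone 1 and at 83.9 and 83.3 in clone 2. Its WT libraries thus spanned the whole range of the KO libraries. Insig2, the other retention protein, stood at 16.0 and 11.6 CPM in WT and at 13.6 to 19.3 in KO. Ggps1, which makes geranylgeranyl diphosphate for protein anchoring, was the only member with KO libraries above both WT, at 32.1 and 7.4 CPM in WT, against 33.2 to 38.1 in KO. Its WT mouse 1 value lay just under the lowest KO value, and its log2 fold change of 0.86 ± 0.49 (SE, edgeR adjusted p = 0.425) became 0.15 ± 0.15 without WT mouse 2.

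**Figure D3:**
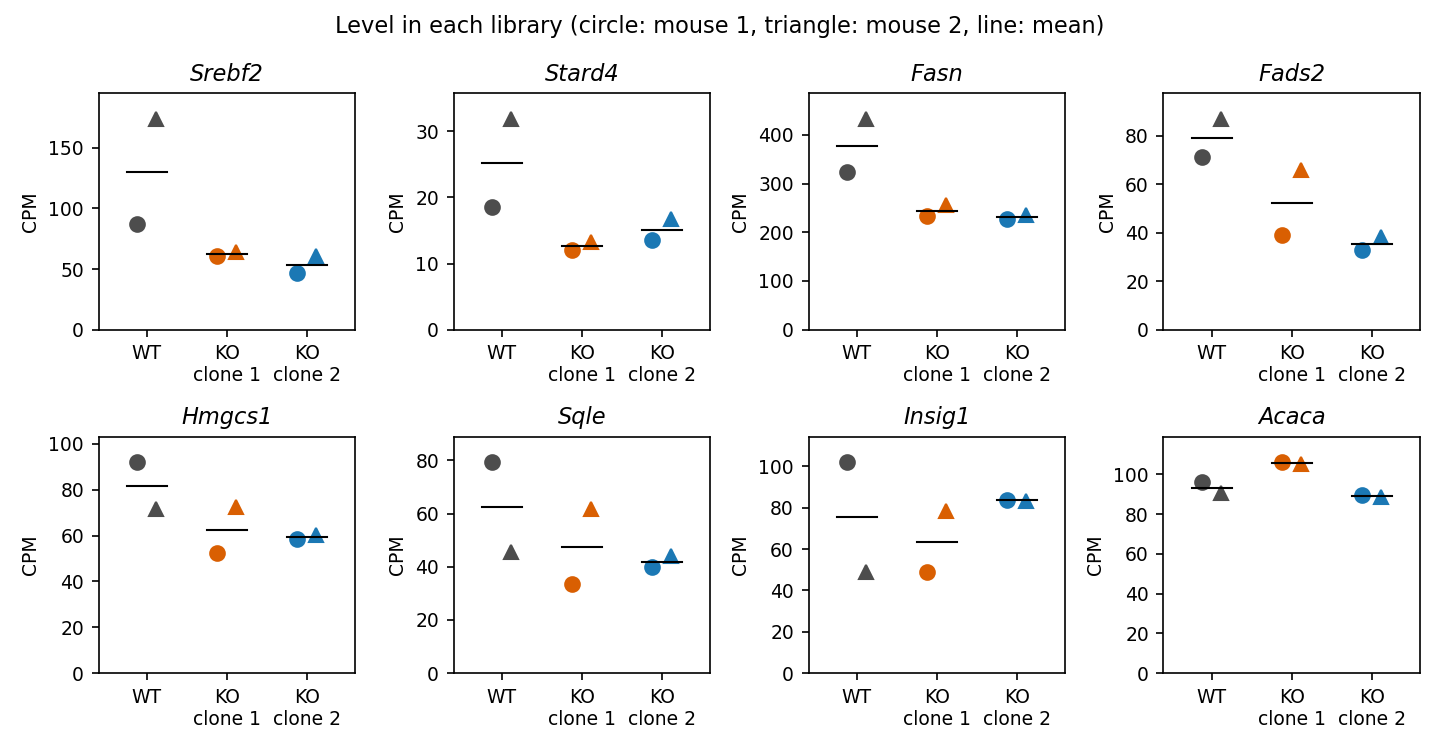
CPM of 8 of the genes in each library, by group, with circles for mouse 1, triangles for mouse 2 and a line at the group mean, each axis starting at 0. Srebf2, Stard4 and Fasn show every KO library below both WT libraries, Insig1 shows WT values of 102 and 48.8 around the KO values, and Acaca is nearly level.

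Of the 18 enzymes that lead from acetyl-CoA to cholesterol, 12 had negative and 6 positive fold changes in KO against WT, with a median log2 of -0.40. In the early steps, Hmgcs1, the synthase that forms HMG-CoA, stood at 92.0 and 71.7 CPM in WT, at 52.3 and 72.3 in clone 1 and at 58.6 and 60.3 in clone 2. Clone 1 mouse 2 was just above the lower WT library, and the log2 fold change was -0.43 ± 0.19 (SE), with an edgeR adjusted p of 0.375. Acat2, the thiolase before it, stood at 21.2 and 18.4 CPM in WT and at 10 to 16.4 in KO. Pmvk, a kinase of the mevalonate pathway, stood at 27.5 and 35.4 CPM in WT and at 17.7 to 25.4 in KO. These are the only 2 of the 18 enzymes whose KO libraries all lay below both WT libraries, where 10.7% of all genes did. Their edgeR adjusted p-values were 0.372 and 0.363. Mvd, which decarboxylates mevalonate diphosphate, stood at 20.4 and 15.5 CPM in WT, against 9.7 to 15.8 in KO, so its groups overlapped. Sqle, the squalene epoxidase, stood at 79.3 and 45.5 CPM in WT, at 33.4 and 61.6 in clone 1 and at 39.9 and 43.9 in clone 2, so 1 KO library exceeded the lower WT library.

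The late enzymes, which turn lanosterol into cholesterol, were set apart by the gap between the WT mice. Cyp51 stood at 132 and 43.2 CPM in WT, at 56.7 and 107 in clone 1 and at 91.3 and 103 in clone 2. Msmo1, the methylsterol oxidase, stood at 66.8 and 15.5 CPM in WT and at 31.6 to 53.4 in KO, and Sc5d, a desaturase, at 36.0 and 10.6 in WT and 19.3 to 27.3 in KO. In all 3 genes the 4 KO libraries lay between the 2 WT libraries. Dhcr7, which makes cholesterol from its last precursor, went the other way, at 12.3 and 21.1 CPM in WT, against 11 to 12.8 in KO. Without WT mouse 2, all 18 enzymes and 23 of 24 sterol genes had negative fold changes in KO against WT, with a sterol median of -0.57 and 52.2% of all genes negative. Without WT mouse 1, 12 of 24 sterol genes were negative, so the direction of the branch as a whole depended on the WT library used. In that fit 11 members were called, 5 with negative values (Dhcr7, Fasn, Pmvk, Srebf2 and Stard4) and 6 with positive ones (Cyp51, Ebp, Ggps1, Msmo1, Sc5d and Tm7sf2), where 37.5% of all genes were called. With WT mouse 1 as the lone WT library no member was called, where 0.174% of genes were. In both fits the lone WT library is assumed to vary like the KO libraries.

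The fatty acid branch was mixed, with Fasn, Fads2 and Srebf1 below WT in every KO library and the others overlapping. Its count also depended on the WT library: without WT mouse 2 all 10 fold changes in KO against WT were negative, with a median of -0.27, and without WT mouse 1 there were 5 of 10, with a median of 0.06. Over all genes 52.2% and 47.2% were negative in these fits. Fasn (chr11, 120805846 to 120824547 on GRCm38), the fatty acid synthase, stood at 323 and 433 CPM in WT, at 233 and 255 in clone 1 and at 228 and 235 in clone 2. Every KO library was below both WT libraries, and the KO libraries lay close together. Its mean was 378 ± 78.3 CPM (SD, n = 2) in WT and 238 ± 11.8 (SD, n = 4) in KO, a log2 fold change of -0.67 ± 0.18 (SE) with an edgeR adjusted p of 0.243 and a DESeq2 adjusted p of 0.044. Without WT mouse 2 it was -0.47 ± 0.14 (SE). Fads2, the first desaturase of polyunsaturated fatty acid synthesis, stood at 71.2 and 87.0 CPM in WT, at 39.0 and 65.8 in clone 1 and at 32.7 and 38.3 in clone 2, a log2 fold change of -0.85 ± 0.29 (SE, edgeR adjusted p = 0.312). Its neighbour on chromosome 19, Fads1, on the other strand, stood at 268 and 166 CPM in WT and overlapped in KO. Srebf1 stood at 115 and 133 CPM in WT and at 82.1 to 109 in KO, with a log2 fold change of -0.35 ± 0.18 (SE, edgeR adjusted p = 0.400).

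Acly, Acaca and Lpin1 were nearly level. Acaca, the acetyl-CoA carboxylase that commits carbon to fatty acids, stood at 96.1 and 90.4 CPM in WT, at 106 and 105 in clone 1 and at 89.8 and 88.5 in clone 2. Acly stood at 354 and 303 CPM in WT and at 256 to 317 in KO, and Lpin1, a phosphatidate phosphatase of glycerolipid synthesis, at 15.7 and 12.3 in WT and 13.8 to 16.4 in KO. Scd2 stood at 681 and 829 CPM in WT, at 493 and 681 in clone 1 and at 481 and 531 in clone 2, with a log2 fold change of -0.47 ± 0.21 (SE, edgeR adjusted p = 0.376). Its close relative and neighbour Scd1 had 194 CPM in WT mouse 1, 102 in WT mouse 2 and 125 to 190 in KO. How reads were split between such near copies is unstated. The sum of Scd1 and Scd2 was 875 and 931 CPM for WT mice and 617 to 865 for KO mice. Elovl6, an elongase, stood at 41.3 and 21.3 CPM in WT and at 30.3 to 44.3 in KO.

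Each clone was also set against the same 2 WT libraries, which the comparisons share. No member was called by edgeR in clone 1 against WT, with 0.00643% of genes called, or in clone 2 against WT, also with 0.00643%. Without WT mouse 1 the calls were 10 members in clone 1, against 34.5% of genes, and 13 in clone 2, against 40.2%, and without WT mouse 2 there were none, against 0.361% and 1.16%. At an unadjusted p under 0.05 there were 3 members in each, against 7.1% and 11.3% of all genes. The log2 fold change of Srebf2 was -1.06 ± 0.35 (SE) in clone 1 and -1.28 ± 0.35 in clone 2, with edgeR adjusted p-values of 0.571 and 0.311. Fasn stood at -0.63 ± 0.23 (SE) and -0.71 ± 0.23, and Stard4 at -0.99 ± 0.31 and -0.73 ± 0.31. The largest gap between the clones' values was that of Fads2, at -0.59 ± 0.30 (SE) in clone 1 and -1.15 ± 0.30 in clone 2, the latter called by DESeq2 with an adjusted p of 0.045, where DESeq2 called 2.99% of genes. Its clone 1 value was -0.26 without clone 1 mouse 1 and -1.01 without clone 1 mouse 2. In clone 2 against clone 1 directly, no member was called by edgeR or at an unadjusted p under 0.05, with 0.0% and 3.23% of genes called. DESeq2 called no member in clone 1 against WT or in clone 2 against clone 1, where it called 1.74% and 0.752% of genes. Leaving out WT mouse 1 or WT mouse 2 gave none between the clones either, with 0.486% and 0.541% of genes called. The difference was -0.56 ± 0.30 (SE) for Fads2, -0.39 ± 0.20 for Scap and 0.40 ± 0.39 for Insig1 on the log2 scale, each with an edgeR adjusted p of 1. The values for Fads2 and Insig1 rested on single clone 1 mice. Without clone 1 mouse 1 the difference was -0.89 for Fads2 and 0.09 for Insig1. Without clone 1 mouse 2 it was -0.13 and 0.78, in the same order. That of Scap moved less, from -0.46 to -0.32 with each library left out. Both libraries of a clone lay below both WT libraries for 8 members in clone 1, the 7 above and Dhcr7, where 15.1% of all genes did, and for 16 in clone 2, where 25.3% did. They lay above for Ggps1 and Acaca in clone 1, where 17.4% did, and for Ggps1 in clone 2, where 26.5% did. Clone 2 libraries lay wholly below clone 1 for Srebf2, Scap, Acaca and Fads2, where 22.7% of all genes did, and wholly above for Tm7sf2, Insig1, Stard4 and Acly, where 21.8% did.

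Sterol enzymes differed between mice of 1 group by as much as between genotypes. The summed level of the 18 enzymes was 824 and 485 CPM in WT, 432 and 677 in clone 1 and 535 and 587 in clone 2. WT mouse 1 was the highest library for 15 of the 18 enzymes, where it was highest for 12.6% of all genes. Clone 1 mouse 1 was the lowest for 9 enzymes, where it was lowest for 12.6% of all genes. WT mouse 2 was the lowest for 7, where it was lowest for 39.0%. Within clone 1, mouse 2 was above mouse 1 for 21 of 24 sterol genes, with a median difference of 0.51 on the log2 scale, and for 8 of 10 fatty acid genes, with a median of 0.44. Over all genes 50.5% were above, with a median of 0.006 and a 10th to 90th percentile range of -0.77 to 0.47. Cyp51 was 1.89-fold, Sqle 1.85-fold, Fdps 1.83-fold and Insig1 1.6-fold higher in clone 1 mouse 2 than in mouse 1, while Srebf2 was 1.05-fold and Acaca 0.990-fold. This is 1 pair of mice, with no test. In clone 2, mouse 2 was above mouse 1 for 19 of 24 sterol genes, with a median of 0.13, against 50% of all genes.

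Other values moved with this difference in clone 1. Dividing-cell markers summed to 1240 CPM in clone 1 mouse 1 and 1470 in mouse 2, with 7 of 8 higher in mouse 2. T and NK cell markers summed to 131 and 61.7 CPM in the same libraries, dendritic cell markers to 46.7 and 28.3, neutrophil markers to 62.6 and 46.1, and macrophage markers to 10200 and 8860. Fibroblast markers went the same way as the sterol enzymes, from 2460 to 3780 CPM, with Col3a1, Dcn, Pdgfra and Pdgfrb higher in mouse 2 and the other 4 of the list lower. Their part in the sterol difference was not tested. Across the 34 members the clone 1 difference had a Spearman rho of -0.0961 with GC content and -0.229 with transcript length, against 0.042 and -0.225 over 14910 genes of the same 2 libraries.

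**Figure D4:**
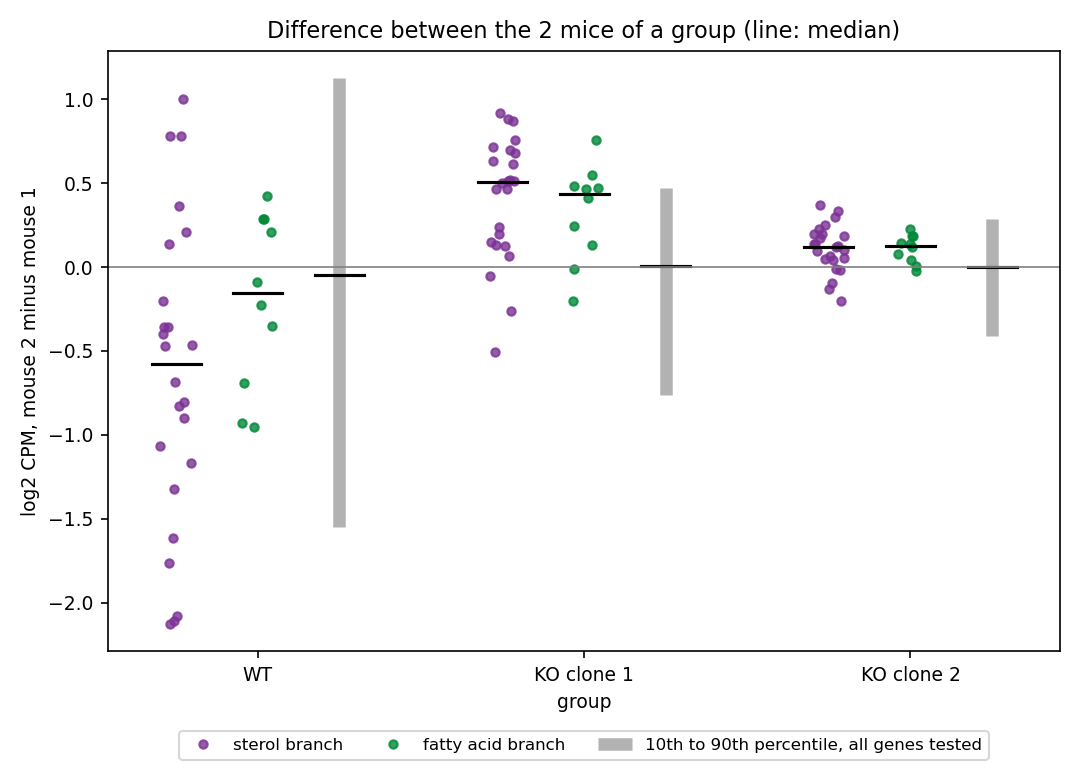
Difference between the 2 mice of each group, in log2 CPM of mouse 2 minus mouse 1, for each sterol and fatty acid gene, with medians as lines and the 10th to 90th percentile of all genes tested as grey bars. In clone 1 the sterol median is 0.51 and the fatty acid median 0.44, while in WT the sterol genes spread from -2.12 to 1.

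The WT libraries differed along GC content, and the members followed that trend but lay lower, by bin median, than all genes. Mouse 2 against mouse 1 of WT, the log2 difference had a Spearman rho with transcript GC of 0.609 (Pearson r 0.616) over the 34 members and of 0.465 over 14910 genes, which share the same 2 libraries. Genes were split by GC into 5 bins of equal size. In the lowest bin, 29.6% to 43.7%, the median of all genes was -0.82, and the 4 members there (Hmgcs1, Idi1, Sc5d and Ggps1) had a median of -1.54. In the highest bin, 55.3% to 78.6%, the median of all genes was 0.53, and the 7 members there, with Srebf2, Fasn and Srebf1 at 57.9%, 57.9% and 58.4% GC, had a median of 0.21. In the bins between, members had medians of -0.915, -0.522 and -0.228, against -0.327, 0.02 and 0.25 for all genes. The members' median thus lay below that of all genes in every bin, and the reason was not tested. Stard4, at 43.9% GC, was 1.71-fold higher in WT mouse 2 and so lay against the trend. Once each library's trend with GC was removed, a step chosen after the trend was seen, no member was called in KO against WT, with 0.335% of genes called, in clone 1 against WT, with 0.0738%, or in clone 2 against WT or clone 1, both with 0.00671%. The log2 fold change then was -0.81 ± 0.17 (SE) for Srebf2 (edgeR adjusted p = 0.133), -0.72 ± 0.17 for Hmgcs1 (0.164), -1.20 ± 0.32 for Stard4 (0.211) and -0.37 ± 0.13 for Fasn (0.304). Srebf1 moved to -0.05 ± 0.17 and Pmvk to -0.23 ± 0.19. Negative values were found for 18 of 24 sterol genes, with a median of -0.23, and for 6 of 10 fatty acid genes, with a median of -0.04, against 51.1% of all genes.

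**Figure D5:**
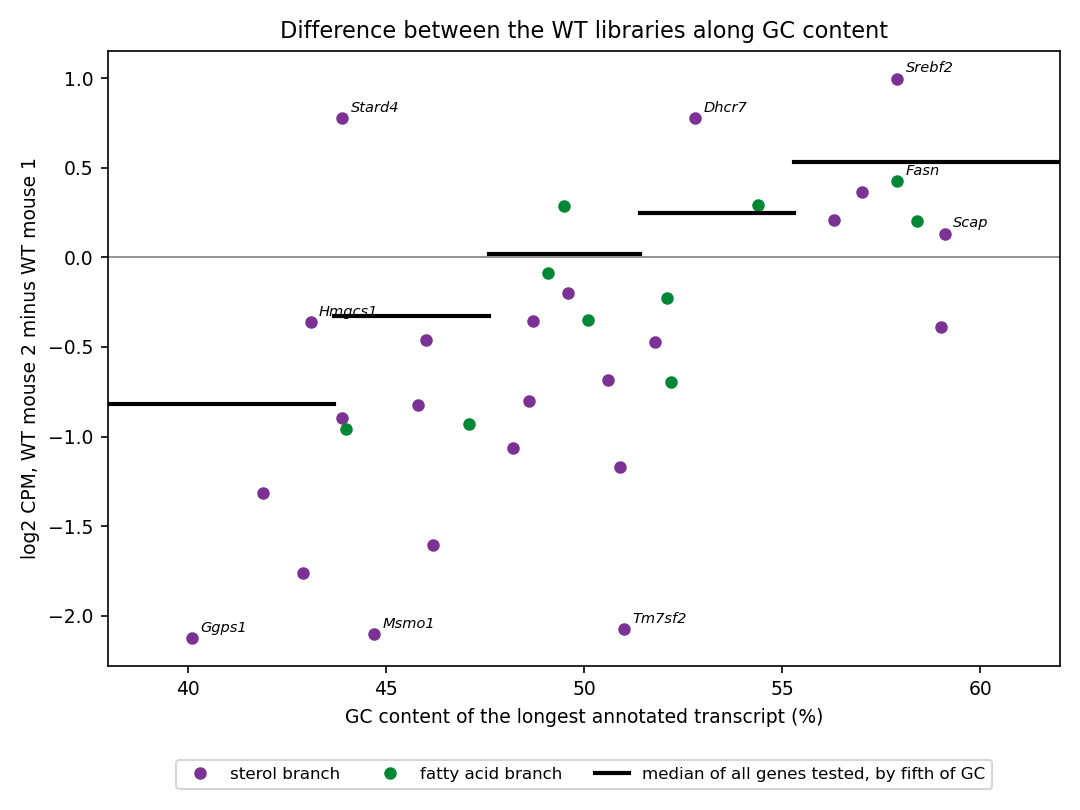
Difference between the 2 WT libraries, in log2 CPM of mouse 2 minus mouse 1, against the GC content of each member's longest annotated transcript, with bars at the median of all genes in each of 5 GC bins. The all-gene median climbs from -0.82 to 0.53. The members' median is lower in each bin, though single members such as Stard4 and Dhcr7 lie above the bars.

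Promoters of 4 members are shown because each carries at least 1 sequence motif that the sterol system is known to use. Of these promoters, 2 belong to the genes with the smallest p. SREBP proteins bind sterol response elements and work with NF-Y, which binds CCAAT. The sequences come from RefSeq on GRCm38.p6 and lie before the gene's start, with bases that GENCODE annotates as transcribed left out. Capitals mark TCACNCCAC, CACGTG and CCAAT on either strand, so that CCAAT on the other strand reads as ATTGG. In Fasn, CCAAT matches on both strands overlap within the run CCAATTGG. TCACNCCAC is marked only in Hmgcs1 and CACGTG only in Insig1, while Srebf2 and Fasn carry CCAAT alone.
Hmgcs1, chr13:119690101-119690350, plus strand: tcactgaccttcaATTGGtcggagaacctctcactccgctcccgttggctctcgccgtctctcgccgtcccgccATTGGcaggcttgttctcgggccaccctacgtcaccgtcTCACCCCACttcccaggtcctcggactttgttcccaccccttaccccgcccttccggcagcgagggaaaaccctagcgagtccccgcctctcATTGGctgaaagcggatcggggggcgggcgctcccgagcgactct
Insig1, chr5:28071162-28071362, plus strand: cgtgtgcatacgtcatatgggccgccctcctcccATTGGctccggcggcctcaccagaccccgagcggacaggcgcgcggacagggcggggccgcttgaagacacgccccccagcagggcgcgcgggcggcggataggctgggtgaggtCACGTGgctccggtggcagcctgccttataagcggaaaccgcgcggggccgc
Srebf2, chr15:82147019-82147180, plus strand: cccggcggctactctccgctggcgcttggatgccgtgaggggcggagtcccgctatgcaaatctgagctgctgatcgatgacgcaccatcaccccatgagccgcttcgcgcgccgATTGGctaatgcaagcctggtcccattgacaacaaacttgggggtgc
Fasn, chr11:120824548-120824797, minus strand: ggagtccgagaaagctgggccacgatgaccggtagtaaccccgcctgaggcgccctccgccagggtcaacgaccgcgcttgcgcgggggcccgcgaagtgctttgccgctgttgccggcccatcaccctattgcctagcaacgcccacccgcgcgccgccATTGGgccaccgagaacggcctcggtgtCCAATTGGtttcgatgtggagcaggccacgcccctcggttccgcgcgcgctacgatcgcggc

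In the 250 bases before the start, CCAAT was found on either strand in 18 of 20 sterol promoters (90%) and in 2 of 7 fatty acid promoters, those of Srebf1 and Fasn (28.6%), against 39.9% of 11579 genes tested with a promoter entry. CACGTG was found in 5 of 20 sterol promoters, those of Hsd17b7, Sc5d, Dhcr7, Scap and Insig1, in none of 7 fatty acid promoters and in 9.38% of genes tested. The form TCACNCCAC of the sterol response element was found in 1 of 27 promoters, that of Hmgcs1, and in 1.23% of genes tested. RefSeq promoters matched 27 of the 34 members, and Fdps, Fdft1, Sqle, Stard4, Scd1, Scd2 and Fads1 had no entry. A match is a description of letters and not a bound site.

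Genes next to these pathways gave a mixed picture. Of 24 further sterol and isoprenoid genes, none was called in KO against WT, where 0.135% of all genes tested were. Fold changes were negative for 10 and positive for 14, with a median log2 of 0.14. Over all genes 49.8% were negative and the median was 0.0033. Soat2, which esterifies cholesterol, stood at 10.3 and 11.7 CPM in WT, against 4.45 to 7.08 in KO (log2 fold change -0.96 ± 0.25 SE, edgeR adjusted p = 0.227). Of 32 further fatty acid and glycerolipid genes, 31 were tested and none was called, against the same 0.135% of all genes. Of these 12 were negative and 19 positive, with a median of 0.07, against the same 49.8% negative over all genes. Fads3, a relative of Fads1 and Fads2, had the smallest p of them (-0.69 ± 0.20 SE, edgeR adjusted p = 0.276). Of 6 genes driven by LXR receptors or encoding them, none was called, again against 0.135% of all genes. Nr1h3, which encodes the receptor LXR alpha, stood at 8.52 and 13.6 CPM in WT and at 18.9 to 25.1 in KO (0.93 ± 0.26 SE, edgeR adjusted p = 0.248). Abca1, the cholesterol exporter it drives, had a log2 fold change of -0.06 ± 0.29 (SE). The other LXR targets of the list stood at 0.43 ± 0.22 for Mylip, 0.36 ± 0.25 for Abcg1 and -0.06 ± 0.27 for Lpcat3.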

How the data were processed

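The authors deposited estimated counts per gene symbol (expected counts, not scaled), and the submitters' processing notes name Salmon 0.7.2 and mm10. The transcript set, strand setting and read sharing between near copies are unstated there. The counts were whole or rounded to whole numbers before fitting. Groups came from the sample titles. Genes were kept by edgeR's filterByExpr (minimum count 10), scaled by TMM and fitted with edgeR 4.0.16 (R 4.3.3) quasi-likelihood tests, with Benjamini-Hochberg adjustment over all 15560 genes and a threshold of 0.05. KO against WT used 2 genotype levels, and clones a fit with 3 groups. SE is the size of the log2 fold change over the square root of F. DESeq2 1.42.0, RLE factors, other filters, a replicate block, library totals, a GC correction and leaving out each library were alternatives. CPM are TMM-scaled. The edgeR fits were tested on simulated data with less spread between libraries than here. No simulated library had a GC trend or stood apart in composition, so that test cannot show how the fits handle WT mouse 2. Positions, GC and lengths came from GENCODE M21, where all 34 members matched. The members and gene lists were chosen with earlier results of these data known. Any member could be named, and of each further list up to 4 genes per direction with the smallest p. 1 gene of the further lists is not reported here by name.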

Additional observations from a re-analysis of the deposited data

Results flagged for a closer look

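In 4 KO libraries, Mvk, a mevalonate kinase, stood at 14.9 CPM in clone 1 mouse 2, far from the other 3, which lay between 10.2 and 10.9. Ebp, a sterol isomerase, stood at 29.3 CPM in clone 1 mouse 1, against 34.2 to 34.6 in the other 3 KO libraries, and Insig1 stood at 48.9 CPM in clone 1 mouse 1, against 78.3 to 83.9. Dixon's test set each of these 3 values apart, and among 34 genes tested chance alone sets some apart. Acaca had clone 1 libraries above both WT libraries and clone 2 libraries below both, with means of 106 and 89.1 CPM. By the edgeR fit clone 2 against clone 1 was -0.24 ± 0.19 (SE) on the log2 scale, with an adjusted p of 1.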

How the results depend on the processing

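No member was called by edgeR in KO against WT with TMM or RLE factors, without Rn45s, without Rn45s and Lars2 (added after seeing the data), with either other filter, with a replicate block, with the mean of the clones or with the GC correction. DESeq2 called 2 members in KO against WT and 1 in clone 2 against WT. Over all genes, edgeR called 21 and DESeq2 499 in KO against WT, and 1 and 465 in clone 2. Leaving out each library in turn gave 0 to 11 members called in KO against WT, 0 to 10 in clone 1 and 0 to 13 in clone 2, and the highest counts came without WT mouse 1, where WT mouse 2 alone stood for WT and 37.5% of all genes were called. The sterol median then ran from -0.574 to 0.05 in KO against WT and from -0.616 to 0.129 in clone 1. In clone 2 it ran from -0.515 to -0.048 and so stayed negative. The fatty acid median ran from -0.271 to 0.056 in KO against WT. Its range was -0.326 to 0.067 in clone 1 and -0.321 to 0.037 in clone 2. The cause was not tested. The log2 fold change in KO against WT turned for Cyp51 (-0.01 with at least 5 CPM in 2 libraries, -0.05 with the GC correction) and Nsdhl (-0.03 and -0.12), and with the GC correction for Sc5d (-0.13), Scap (0.24), Elovl6 (-0.04) and Fads1 (0.02). With each library left out it ran from -0.81 to 0.55 for Idi1, -0.58 to 0.15 for Fdps, -0.58 to 1.06 for Cyp51, -0.4 to 1.72 for Tm7sf2, -0.61 to 1.53 for Msmo1, -0.36 to 0.51 for Nsdhl, -0.82 to 0.11 for Hsd17b7, -0.14 to 1.07 for Ebp, -0.6 to 1.21 for Sc5d, -0.49 to 0.61 for Insig1, -0.02 to 0.48 for Insig2, -0.01 to 0.12 for Acaca, -0.25 to 0.72 for Scd1, -0.27 to 0.73 for Elovl6, -0.38 to 0.35 for Fads1 and -0.06 to 0.33 for Lpin1. Of the 34 members, 17 changed sign in at least 1 of 15 alternatives and 17 in none of them. Deviations of same-numbered libraries from their group means correlated at -0.281 for WT with clone 1 and 0.0499 for WT with clone 2. Between the clones the value was 0.22. With 2 libraries in a group, each value rests on 1 difference per group, so these values cannot settle whether mouse numbers pair the libraries. With the mouse number as a replicate block, no member was called, 15 genes were called in KO against WT, and the medians were -0.34 for the sterol and -0.09 for the fatty acid branch.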
